A study of Mus musculus with 20 samples.

Results

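The open chromatin regions of mouse chromosome 8 were followed in C2C12 cells, a mouse myoblast line used as a model of muscle formation, with and without the gene Setd2. Merging the peaks of all 20 libraries at an overlap of at least 1 bp gave 101352 regions, and the 5734 regions on chromosome 8 are described here. Of these, 1304 lay between 80 and 100 Mb, named the proximal segment below, 1873 lay from 100 Mb to the last region near 129 Mb, named the distal segment, and 2557 lay before 80 Mb. The chromosome and its segments were chosen by the rank and density of peaks in the KO lines against wild type (WT), so those values are a description and carry no test.

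The study measured chromatin accessibility by ATAC-seq, which cuts open DNA with a transposase, in WT cells and in 2 lines without Setd2 (KO line 1 and KO line 2). Collection was at day 0 (D0) and, with either control medium (CTL) or restricted methionine (MR), at day 1 (D1) and day 5 (D5). WT had 2 replicates in each of these 5 conditions, and each KO line had 1 library per condition. Nothing in the labels says that the WT replicates came from separate cultures or how the lines were derived, so spreads and p-values measure only the differences between these libraries.

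Setd2 encodes the methyltransferase that places H3K36me3, a histone mark of transcribed gene bodies, and methionine supplies the methyl group for that reaction. An ATAC-seq peak marks DNA that the transposase can reach, typically a promoter, an enhancer or a bound insulator. Peaks that neighbour each other along a chromosome share their large-scale chromatin environment and their DNA copy number, and in a list of peaks from bulk cells more open DNA per copy and more copies of the DNA cannot be told apart. Chromosome 8 carries genes used in muscle, such as Cdh15 for the myoblast adhesion protein M-cadherin and Phkb for a subunit of the kinase that starts glycogen breakdown.

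The promoters of 3 genes of the proximal segment and 1 of the distal segment are printed because their peaks were among the most changed gene ends in KO line 1 and overlap these bases. The proximal ones belong to Orc6, a subunit of the complex that marks origins of DNA replication, Phkb, and Slc38a7, an amino acid transporter. The distal one belongs to Cdh15. Each holds 300 bases from RefSeq (GRCm38.p6), from 250 before to 50 after the annotated start, 5′ to 3′ on the strand of the gene. Capitals mark 4 short motifs found on either strand, CAGCTG (an E-box bound by myogenic factors), TGANTCA (the AP-1 site), GGGCGG (the GC box) and CCAAT, and no 2 of the marked matches overlap.
Orc6, chr8:85299382-85299681, + strand: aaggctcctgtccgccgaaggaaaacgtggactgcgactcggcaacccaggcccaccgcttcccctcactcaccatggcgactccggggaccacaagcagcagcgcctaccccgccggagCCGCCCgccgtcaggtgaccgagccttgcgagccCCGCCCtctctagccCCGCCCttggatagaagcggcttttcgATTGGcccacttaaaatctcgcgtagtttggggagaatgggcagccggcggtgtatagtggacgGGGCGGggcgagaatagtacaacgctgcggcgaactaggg
Phkb, chr8:85840738-85841037, + strand: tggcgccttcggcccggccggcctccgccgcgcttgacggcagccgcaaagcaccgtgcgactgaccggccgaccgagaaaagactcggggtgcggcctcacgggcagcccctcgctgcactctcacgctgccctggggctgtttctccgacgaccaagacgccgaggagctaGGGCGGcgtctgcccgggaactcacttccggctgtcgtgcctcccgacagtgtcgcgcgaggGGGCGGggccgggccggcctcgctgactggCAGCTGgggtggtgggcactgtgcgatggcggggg
Slc38a7, chr8:95853442-95853741, - strand: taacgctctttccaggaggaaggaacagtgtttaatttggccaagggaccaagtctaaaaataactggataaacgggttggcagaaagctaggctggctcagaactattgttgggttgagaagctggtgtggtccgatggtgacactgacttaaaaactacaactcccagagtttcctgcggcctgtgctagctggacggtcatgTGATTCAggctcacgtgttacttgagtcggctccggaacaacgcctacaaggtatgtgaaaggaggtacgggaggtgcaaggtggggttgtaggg
Cdh15, chr8:122848124-122848423, + strand: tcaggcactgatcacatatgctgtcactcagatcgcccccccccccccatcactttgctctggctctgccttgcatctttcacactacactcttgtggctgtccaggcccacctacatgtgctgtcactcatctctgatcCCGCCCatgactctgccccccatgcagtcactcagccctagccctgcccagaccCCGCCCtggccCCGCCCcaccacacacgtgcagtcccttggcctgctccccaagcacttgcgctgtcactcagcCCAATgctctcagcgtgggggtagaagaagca
The Orc6 promoter holds 4 GC boxes and 1 CCAAT, that of Phkb 1 CAGCTG and 2 GC boxes, that of Slc38a7 1 TGANTCA, and that of Cdh15 3 GC boxes and 1 CCAAT. These are common words. Among all 32851 promoters of the same length, 16.3% held CAGCTG, 7.81% TGANTCA, 35.7% GGGCGG and 37.4% CCAAT. The shares were 14.8%, 5.30%, 40.6% and 39.9% among the 283 promoters of the proximal segment, and 17.2%, 5.88%, 39.8% and 35.3% among the 493 of the distal segment. A match describes the letters and does not show a bound factor.

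The lists of 18 libraries held 20847 to 69881 peaks, of which 5.47% to 5.996% lay on chromosome 8. The D5 lists of KO line 1 held 644 and 1881 peaks and enter no rank value. Markers were looked for by peaks no more than 1 kb from a gene end. Of the myoblast markers, Des and Cdh15 were seen in 18 of these 18 libraries and Myod1 in 17, while Pax7 and Myf5 were seen in none. No endothelial marker (Cdh5, Pecam1, Kdr) was seen, nor were Ptprc and Irf8 of blood, Cdh1 and Epcam of epithelium, or Pax6 and Neurod1 of the neural list. Spi1 of blood was seen in 18 libraries, Krt8 in 10 and Sox2 in 5. Setd2 itself had an end peak in 18 of 20 libraries, KO included, which does not check the edit.

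Each peak was ranked within its own list by the deposited −log10 p-value, from 0 for the weakest to 100 for the strongest, and a region took the rank of its strongest peak. Over the 131 proximal regions called in all 18 libraries of usual depth, the median rank in KO line 1 was 96.6, 96.8 and 94.9 at D0, D1 CTL and D1 MR. The 6 WT libraries of D0 and D1 lay between 81.9 and 89.1, and KO line 2 had 70.6, 80.8 and 77.1. All 3 libraries of line 1 were thus above, and all 3 of line 2 below, every WT library of these days. These ranks are uncentred, and line 2 was lower over the whole genome at D0 and D1 MR. Over the common regions defined below, its genome-wide median difference from WT was −7.76, 0.314 and −9.43 points at D0, D1 CTL and D1 MR. With that shift removed, the 191 proximal common regions of line 2 differed from WT by only −1.69, −1.10 and −0.61 points. Those are not the 131 regions above, so the 2 sets of values differ by more than the shift. Over the regions called in all 18 libraries, the proximal minus the distal median was −7.98, −3.68 and −6.51 in line 2. In the WT libraries of these days it was −0.754 to 1.33, so line 2 was lower there without any centring. In the 248 distal regions the medians of line 1 were 84.4, 83.5 and 79.4, those of WT 82.7 to 87.8, and those of line 2 78.6, 84.5 and 83.6. Here the groups overlapped.

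Differences from WT were then taken in each condition over the 19629 common regions, those with a call in each of the 12 early (D0 and D1) libraries, of which 191 were proximal and 405 distal, and centred on the genome-wide median. In KO line 1 the proximal segment was higher by 7.55, 8.003 and 8.04 points at D0, D1 CTL and D1 MR (mean 7.87 ± 0.270 SD, n = 3). The distal segment was lower, by a median difference of −2.64, −4.45 and −6.65 points (mean −4.58 ± 2.01 SD, n = 3). Regions before 80 Mb stayed near the genome, at a mean of 0.0811 ± 0.540 points. The contrast, proximal minus distal, was 10.2, 12.5 and 14.7 points (mean 12.4 ± 2.25 SD, n = 3), while the WT replicates of one condition differed from each other by −1.21 to 0.486 points in the same contrast. All 3 values of line 1 were therefore outside the gaps between WT replicates. Centring removed shifts of 4.87, 4.31 and −3.78 points. Without it the proximal segment remained higher, at 12.4, 12.3 and 4.26 points, but the distal segment was higher at D0, at 2.23, and lower only at D1, at −0.14 and −10.4.

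Along the chromosome in 5 Mb windows, the mean difference of KO line 1 was above 0 in all 4 proximal windows and below 0 in all 6 distal ones. The mean differences from 80 to 100 Mb were 8.999, 8.28, 6.74 and 9.92 points in order, and those from 100 to 130 Mb were −2.64, −4.79, −6.68, −2.66, −6.26 and −2.81. Before 80 Mb they ranged from −6.70 at 20 to 25 Mb to 8.50 at 40 to 45 Mb. The value at 20 to 25 Mb rested mostly on D1 MR, with −1.91, −2.04 and −16.2 points at D0, D1 CTL and D1 MR. Counting windows that moved by at least 5 points in the same direction in all 3 early libraries, 4 of 25 windows of chromosome 8 were higher (40 to 45, 80 to 85, 85 to 90 and 95 to 100 Mb), against 2.31% of 433 windows on all chromosomes. Only 1 of the 433 windows was lower by this count (0.231%), at 110 to 115 Mb of chromosome 8. The window from 90 to 95 Mb missed the threshold with 4.65 points at D0, and the one from 110 to 115 Mb passed it with −5.41. Ranking by fold enrichment left 0 windows of chromosome 8 past the threshold, although the sign of both segments stayed, and a grid moved by 2.5 Mb left 2 higher.

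**Figure D1:**
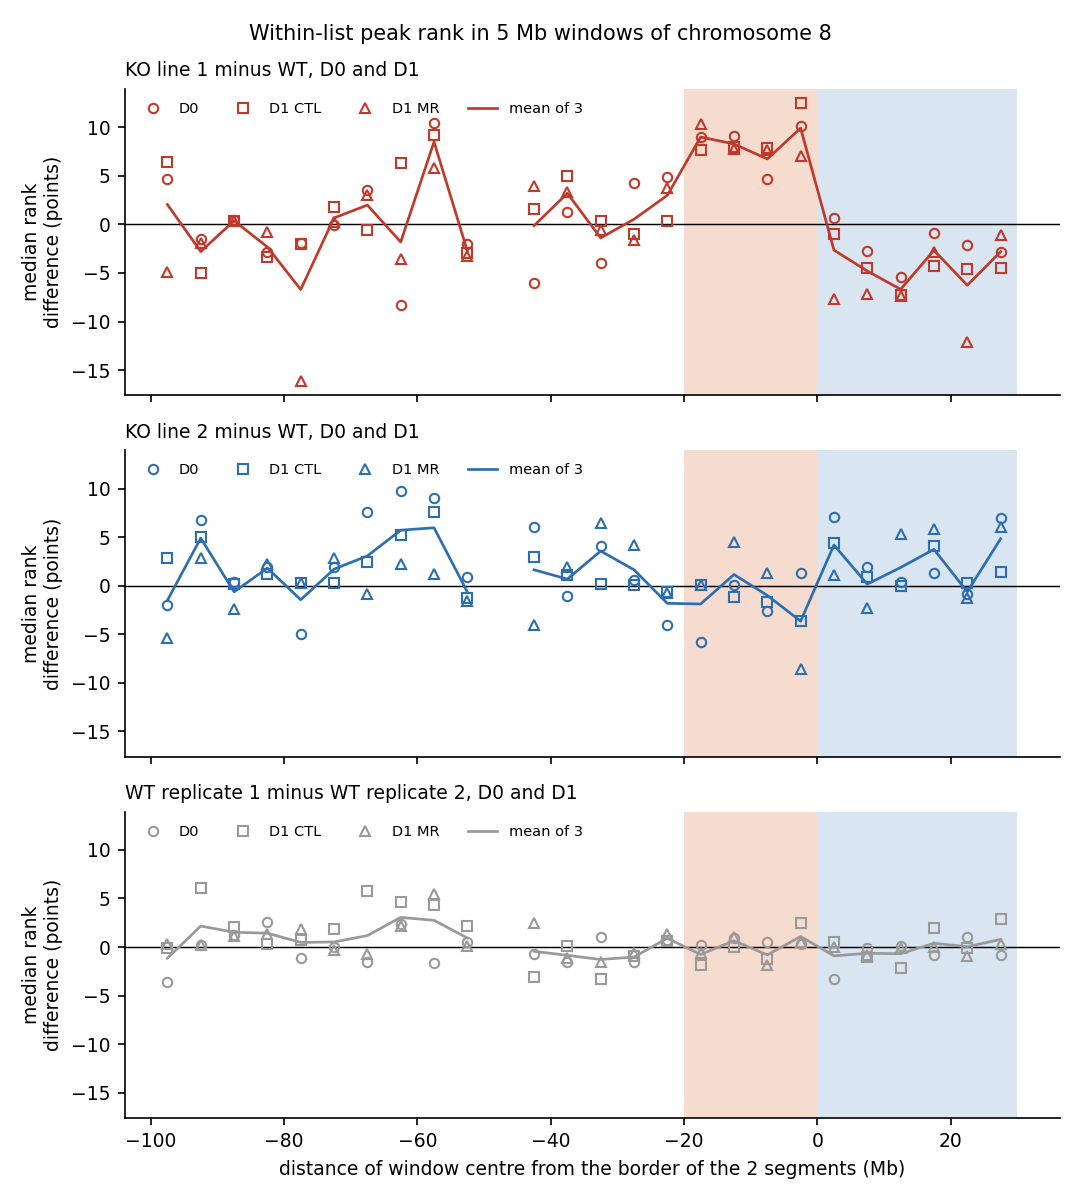
Centred median rank difference (points) of the common regions, in 5 Mb windows of chromosome 8 with at least 10 such regions, against the distance of the window centre from the border of the segments at 100 Mb. Symbols are single libraries (for WT, replicate 1 minus replicate 2), lines are means of 3, and red and blue shading mark the proximal and the distal segment. The proximal windows of KO line 1 lie between 4.65 and 12.5 points, and no such block is seen in KO line 2 or between WT replicates.

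Windows of 1 Mb with at least 5 common regions gave a finer view. Between 80 and 100 Mb, 12 of 13 such windows were higher in all 3 early libraries of KO line 1 and 0 were lower. Between 100 and 130 Mb, 0 of 20 were higher and 12 were lower, and from 60 to 80 Mb 5 of 12 were higher and 2 lower. The segments were chosen on the same values. No share over all 1 Mb windows of the genome is at hand to set beside these counts. Before the border of the segment, the window from 78 to 79 Mb was raised, with 16.1, 43.6 and 12.1 points over 5 regions. The next, from 79 to 80 Mb, had only 1.19, 0.162 and 4.71 points over 16 regions. No 1 Mb window between 80 and 82 Mb held 5 common regions, so the start of the raised block was not placed. The last window of the block was 95 to 96 Mb, with 10.1, 12.5 and 7.09 points over 18 regions. No 1 Mb window between 96 and 104 Mb held 5 common regions, so the end of the raised block was not placed within that stretch. The lowest window was 110 to 111 Mb, with −17.7, −14.6 and −13.9 points over 13 regions.

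The median of chromosome 8 as a whole stayed near that of the genome in KO line 1. Its rank difference was 0.291, −0.658 and −0.145 points at D0, D1 CTL and D1 MR. Its windows were spread widely. The SD of its 5 Mb window medians was 5.18, 5.38 and 6.40 points, second highest of the 20 chromosomes at D0, after 5.89 on chromosome 14, and the highest at D1 in both media. In KO line 2 the same chromosome came 13th, 14th and 15th.

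The number of peaks also differed between the segments, but did not change at 100 Mb. In KO line 1 the proximal segment held 52.4, 45.7 and 37.0 peaks per Mb at D0, D1 CTL and D1 MR, against 21.8 to 34.9 in the 6 WT libraries, which line 1 exceeded in all 3 libraries. The distal segment held 34.6, 32.2 and 25.3 peaks per Mb, against 28.5 to 46.1 in WT. As a share of all peaks in the list, the proximal segment of line 1 was 1.61, 1.52 and 1.502 times that of WT, which is 0.69, 0.60 and 0.59 on the log2 scale. The distal share was 0.827, 0.750 and 0.786 times that of WT, or −0.27, −0.41 and −0.35. The contrast of these log2 ratios was 0.97 ± 0.041 (SD, n = 3), and WT replicates differed by at most 0.056 in it. Within the proximal segment the ratios by 5 Mb window were 0.54, 0.91, 0.71 and −0.04, so its last window had a raised rank but no larger share of peaks. The window from 100 to 105 Mb had a larger share, at 0.49, and from 115 to 125 Mb the log2 ratios were −0.58 and −0.52.

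**Figure D2:**
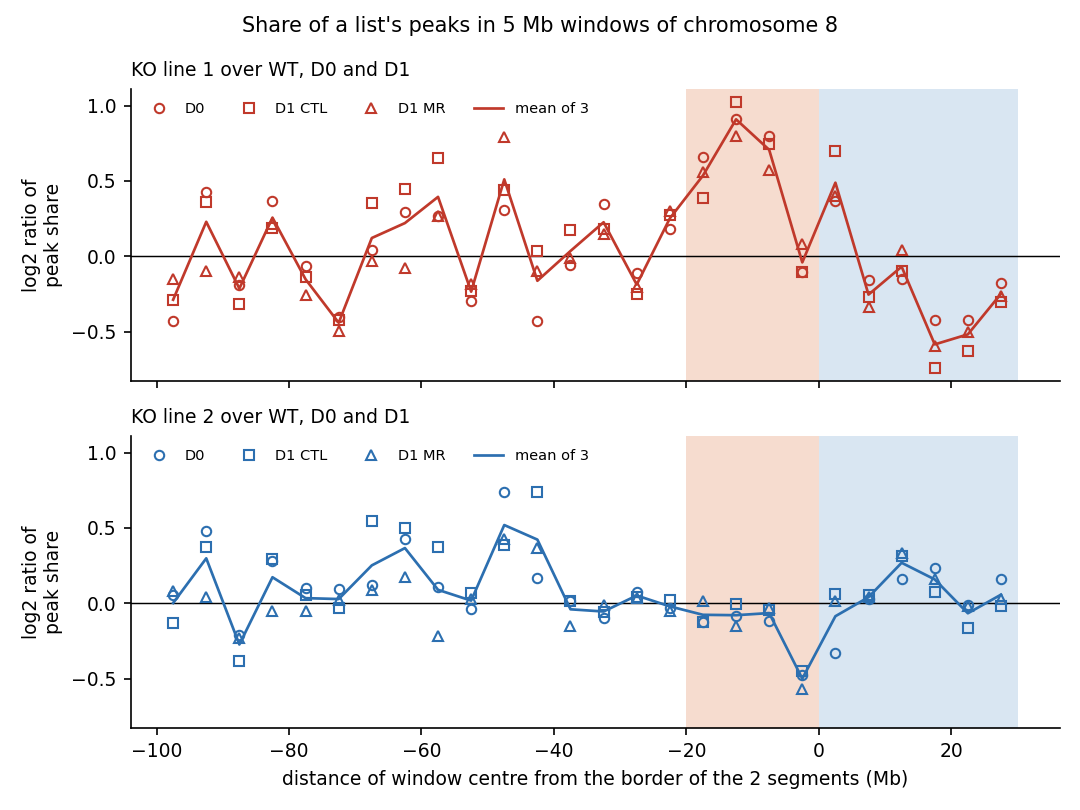
Log2 ratio of the share of a list's peaks in 5 Mb windows of chromosome 8, KO over the mean of the WT libraries of the condition, against the distance of the window centre from the border of the segments. Symbols are libraries at D0 and D1, lines their mean, and shading marks the segments as above. In KO line 1 the first 3 proximal windows average 0.54, 0.91 and 0.71, and in KO line 2 they lie near 0.

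Single regions showed how widely the shift was shared. In KO line 1, 112 of the 191 common proximal regions (58.6%) were higher in all 3 early libraries and 8 were lower, where 22.8% and 21.8% of all common regions were higher and lower. Of the 405 distal regions, 49 were higher and 154 (38.0%) lower. In 97 proximal regions (50.8%) all 3 libraries of line 1 ranked above all 6 WT libraries, against 10.2% of all common regions, and in 1 they ranked below. In the distal segment 21 regions lay above and 49 (12.1%) below, against 7.83% of all common regions below. KO line 2 had 2 proximal regions above (background 3.16%) and 41 below, or 21.5% (background 15.1%). The 2 lines are compared with the same WT libraries.

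Fewer of the regions called throughout WT were missing from the proximal segment of KO line 1, a value that depends on the same lists as the choice of the segments. Of 321 proximal regions called in all 6 early WT libraries, 4 were called in none of the 3 of line 1 (1.25%, 95% Wilson interval 0.486% to 3.16%), against 5.43% on all chromosomes. In the distal segment 63 of 632 were missing (9.97%). KO line 2 lacked 35 of the 321 (10.9%, background 9.9%). These intervals cover counting error only.

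Peak width differed in the same directions as the rank. Relative to all common regions, proximal peaks of KO line 1 were longer than in WT by 0.26, 0.23 and 0.17 on the log2 scale, and distal peaks differed by −0.10, −0.16 and −0.10. WT replicates differed by at most 0.025 in either segment. The segments were also set apart by class of region. In regions within 1 kb of a protein-coding gene end the proximal median was 6.80, 4.46 and 7.86 points (69 regions) and the distal one 0.985, −4.57 and −9.25 (125 regions). In regions farther away it was 9.55, 10.97 and 9.01 points (122 regions) against −4.00, −4.44 and −6.20 (280 regions). The distal median at gene ends was thus not lower at D0. Over all chromosomes the medians were 3.01, −0.31 and −0.27 at gene ends and −1.95, 0.255 and 0.132 away from them. The values varied with strength in WT. Of the 102 proximal regions with an upper WT rank (above the median of the common regions) the median was −0.18, 1.28 and 6.07 points, and of the 89 with a lower one 21.3, 22.2 and 15.6, against −4.05, −3.56 and 0.263, and 9.37, 9.84 and −0.71, over all chromosomes. In the distal segment they were −6.12, −6.84 and −4.82 in 207 upper regions, and 6.64, 0.666 and −10.1 in 198 lower ones. In each of these classes and libraries the proximal median was above, and the distal one below, that of all chromosomes. The 2 segments were close in some traits. Of their regions 15.3% of proximal, 14.9% of distal and 15.8% of all lay at a gene end, and the median WT rank of the common regions was 78.5, 77.4 and 76.8. They differed more in others. Among the common regions the share at a gene end was 36.1%, 30.9% and 33.1%. Common regions made up 14.6% of proximal, 21.6% of distal and 19.4% of all regions.

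The proximal regions ranked furthest above WT in KO line 1 lay between 84 and 89 Mb for the 5 largest mean differences. The highest lay inside Nod2, which encodes an intracellular sensor of bacterial cell wall, at 88653015 to 88653583. Its rank in the WT replicates was 39.9 and 64.5 at D0, 25.05 and 15.1 with D1 CTL, and 36.6 and 19.96 with D1 MR. In line 1 it was 97.2, 94.4 and 95.1, above every WT library, for a mean centred difference of 60.2 ± 17.4 points (SD, n = 3), and in line 2 it was 59.6, 78.4 and 24.1. A region inside the uncharacterised gene 4930432K21Rik (84170126 to 84170475) ranked 7.14 to 55.8 in WT and 93.4, 98.8 and 97.8 in line 1. The region 2817 bp from Abcc12, an ABC transporter gene, ranked 17.2 to 43.1 in WT and 87.1, 81.4 and 81.6 in line 1, and was also high in line 2, at 66.6, 65.4 and 65.9. Next came a region 1794 bp from Cacna1a, a neuronal calcium channel gene, with a mean difference of 47.5 ± 18.5 points, and one inside Zfp423, a zinc finger factor of fat cell precursors, with 43.1 ± 1.39. A single proximal region passed the same rule downward, inside Nfix, a factor that acts in fetal muscle. Its rank was 89.5 to 97.9 in WT and 35.3, 87.8 and 78.0 in line 1, so the difference rested mostly on the D0 library.

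In the distal segment the largest negative differences exceeded the largest positive one. A region inside Tppp3, a tubulin-binding protein gene, at 105469334 to 105469901, ranked 71.6 to 92.0 in WT and 34.2, 4.75 and 3.43 in KO line 1, with a mean difference of −69.3 ± 22.9 points (SD, n = 3). In line 2 it ranked 8.86, 64.1 and 50.5. The region inside Wwox, which spans a common fragile site, at 114673466 to 114673715, ranked in WT 81.2 and 72.5 at D0, 73.4 and 79.5 with D1 CTL and 93.8 and 83.1 with D1 MR. Line 1 had 14.3, 13.4 and 19.6 there and line 2 had 93.4, 83.2 and 95.6, so only line 1 lay below WT. Its difference in line 1 was even across libraries, at −66.6 ± 1.39 points. A region inside Cdh1, the epithelial cadherin gene, differed by −66.2 ± 15.2 points, with ranks of 82.2 to 93.9 in WT and 7.989, 26.8 and 31.3 in line 1. Regions inside Zfp276 and 3062 bp from Bcar1 differed by −64.2 ± 25.3 and −57.6 ± 26.9 points, the first also in line 2, by −54.7 points. The highest distal region, 6185 bp from Ankrd11, was higher by 47.0 ± 17.8 points in line 1 and 31.2 in line 2. Beyond the gap between WT replicates in all 3 libraries were 41 proximal regions upward (21.5%, background 4.47%) and 1 downward, and 9 distal regions upward and 61 downward (15.1%, background 8.77%).

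Listed genes were counted in the same way at their ends. The lists cover muscle, transcription factors, metabolism and stress, chromatin and replication, and adhesion and matrix. Of 26 listed genes in the proximal segment, 15 had a common region within 1 kb of an end, and in KO line 1 this region was higher in all 3 early libraries for 10 and lower for 0, with a median of 4.61 points. Of 30 listed distal genes 17 were measured, 2 were higher and 7 lower in all 3, with a median of −6.23. In the first 80 Mb 11 of 19 were measured, 5 higher and 2 lower, with a median of 3.92. The share of all common regions with such agreement was 22.8% higher and 21.8% lower. In 9 of the 15 proximal genes all 3 libraries of line 1 ranked above all 6 WT libraries (background 10.2%), and this held for 1 of the 17 distal genes and 3 of the 11 in the first 80 Mb. In KO line 2 the proximal genes were higher in 3 and lower in 8, with a median of −5.14 points (background 24.7% and 24.9%).

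Among chromatin and replication genes, 4 of 4 measured proximal genes were higher in all 3 early libraries of KO line 1. By the same count 22.8% of all common regions and 58.6% of the proximal ones were higher, so so few genes do not set this list apart from its segment. Orc6, whose promoter is printed above, ranked 45.3 and 55.7 in WT at D0, 67.8 and 64.0 with D1 CTL and 68.7 and 64.9 with D1 MR. Line 1 had 96.3, 88.1 and 93.6 and line 2 had 19.4, 44.4 and 32.4, so neither line overlapped WT in uncentred rank, and they lay on opposite sides of it. Of all common regions, line 1 lay above all 6 WT libraries in 10.2% and line 2 below them in 15.1%. The centred difference of line 1 was 29.8 ± 11.5 points (SD, n = 3), and those of line 2 were −23.3, −21.9 and −25.0. Setd6, which encodes a lysine methyltransferase, had the highest mean of all listed genes, 32.9 ± 24.9 points, but the libraries were uneven, at 43.7, 50.6 and 4.41. Its line 1 ranks of 75.1, 80.5 and 64.4 overlapped the WT range of 17.4 to 69.3, and its mean in line 2 was 4.72. The lowest of this list were Prmt7, an arginine methyltransferase gene of the distal segment, with 4.31, −9.32 and −13.7 points (−39.1, −2.77 and −2.95 in line 2), and Nsd3, which encodes another H3K36 methyltransferase and lies in the first 80 Mb, with −2.68, −3.51 and −0.38 (mean −2.96 in line 2).

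Of the muscle genes, Phkb and Cdh15 differed most, in opposite directions. Phkb ranked 51.2 and 66.4 in WT at D0, 48.6 and 62.7 with D1 CTL and 71.6 and 63.6 with D1 MR. KO line 1 had 91.2, 90.9 and 83.9, above every WT library, a difference of 26.2 ± 5.51 points, and line 2 had 54.4, 42.5 and 72.0. Cdh15 ranked 89.9 and 86.7 in WT at D0, 90.1 and 77.7 with D1 CTL and 86.3 and 81.8 with D1 MR. Line 1 had 83.6 at D0, inside the WT range, and 59.2 and 41.8 at D1, below it, with a mean difference of −25.7 ± 14.7 points. Line 2 had 75.01, 68.6 and 77.2, all below WT before centring, with a mean centred difference of −6.19. Itgb1, the integrin beta 1 gene near the distal end of the chromosome, differed by −6.13, −13.4 and −7.89 points in line 1, with ranks inside the WT range of 60.3 to 81.9, and by −46.1, −1.99 and −46.3 points in line 2, with ranks of 10.6, 71.2 and 23.9. Mef2b, from the first 80 Mb and a member of the Mef2 family of muscle factors, had 13.2, 23.8 and 1.68 points in line 1 and a mean of −23.3 in line 2, with a gap of up to 33.0 between WT replicates. The end of Mylk3, which encodes a myosin light chain kinase of heart muscle and lies next to Orc6, had a peak in 0 of 6 WT, 3 of 3 line 1 and 0 of 3 line 2 libraries, and Acta1, the skeletal actin gene of the distal segment, in 4, 0 and 1. These 2 genes were picked after their values were seen, and no share over all gene ends is at hand. New calls were common in line 1. At D0, D1 CTL and D1 MR, 53.7%, 47.6% and 29.2% of its proximal regions were in neither WT library of the condition. Over all chromosomes 34.1%, 30.9% and 16.7% were.

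Metabolic genes of the proximal segment included the neighbours Slc38a7 and Got2, which encodes the mitochondrial aspartate aminotransferase. Slc38a7 ranked 65.5 to 79.2 in WT with a median of 72.0, then 86.9, 93.3 and 84.2 in KO line 1 and 24.5, 39.9 and 44.8 in line 2. As with Orc6, the lines lay on opposite sides of WT without overlap in uncentred rank. The mean centred differences were 14.9 ± 3.50 points in line 1 and −29.4 in line 2. Got2 ranked 62.4 to 79.5 in WT and 91.9, 91.4 and 86.1 in line 1, a difference of 13.9 ± 7.34 points, with a mean of −5.14 in line 2. At the low end of this list were Cox4i1, a cytochrome oxidase subunit gene of the distal segment, with −7.40, −11.4 and −22.8 points (−27.9, 1.55 and −13.7 in line 2), and Gdf15, a stress-induced cytokine gene of the first 80 Mb, with 8.08, −14.8 and −17.1 (mean 8.39 in line 2).

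Of the transcription factor genes, 2 of 4 measured proximal ones were higher in all 3 early libraries of KO line 1 and 0 lower, 0 of 6 distal ones were higher and 2 lower, and 2 of 3 in the first 80 Mb were higher and 1 lower. Of all common regions, 22.8% were higher and 21.8% lower by that count. The medians of these genes were 4.18, −6.88 and 10.2 points, so the first 80 Mb lay above the proximal segment in this list. In the distal segment Foxc2, a forkhead factor of mesoderm, had −8.36, −8.12 and −31.7 points in line 1, and −59.0, −1.29 and −48.0 in line 2, where the mean difference was larger. In line 1 Nfat5, the factor of the response to high salt, had −4.33, 1.89 and −26.9, with a mean of 2.56 in line 2. Maf, also distal, went the other way at D0 and D1 in CTL, with 23.9 and 18.7 points, and had −2.93 at D1 in MR, with a mean of −8.29 in line 2. Jund, an AP-1 subunit gene of the first 80 Mb, had 40.7, 21.0 and 5.83 points, and a mean of 8.14 in line 2. Piezo1, the gene of a mechanically gated ion channel, was the single measured gene of the adhesion list and had −2.17, −15.5 and −12.7, with −20.3, −1.90 and −4.55 in line 2.

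**Figure D3:**
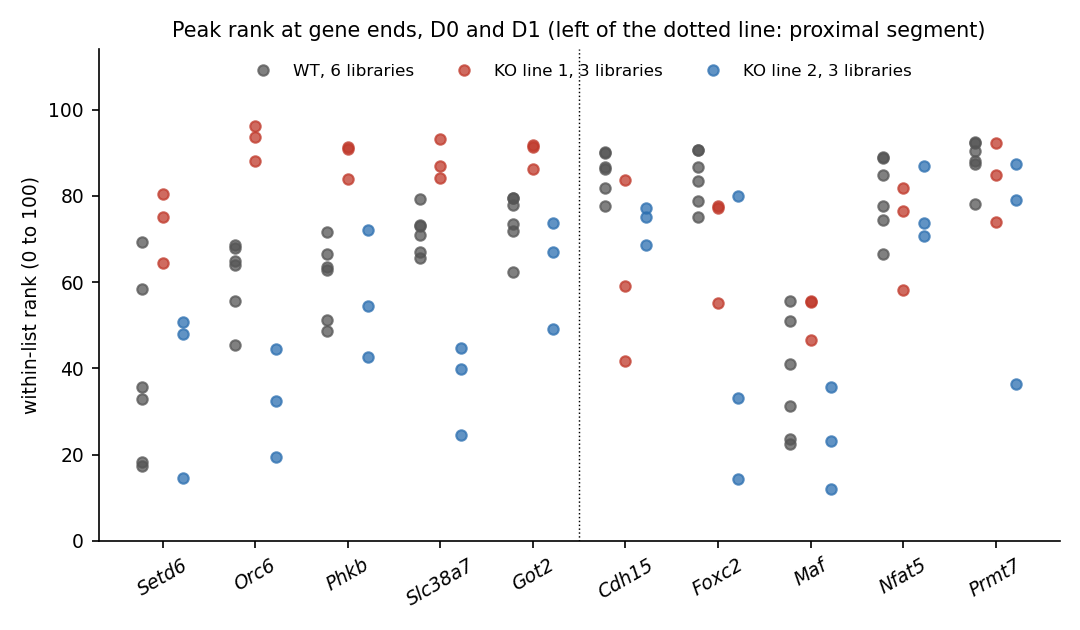
Within-list rank (0 to 100) of the common region at the end of 10 named genes in each of the 12 libraries of D0 and D1, uncentred, with 1 point per library. In the 4 proximal genes Orc6, Phkb, Slc38a7 and Got2 all 3 points of KO line 1 (red) lie above all 6 of WT (grey).

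KO line 2 did not share the early shift. Its proximal segment differed from WT by −1.69, −1.10 and −0.61 points at D0, D1 CTL and D1 MR, and its distal segment by 0.927, 0.913 and 2.04, a contrast of −2.43 ± 0.359 points (SD, n = 3). The sign was opposite to that of line 1 in all 3 conditions and its size above that of the gaps between WT replicates, which reached −1.21. Not every setting kept that size. In D1 MR the contrast of −2.65 became −0.36 without WT replicate 2 and −0.95 at gene ends, both within the gaps. In D1 CTL the contrast of −2.01 became −1.002 away from gene ends. The log2 ratios of peak share were −0.12 ± 0.032 and 0.04 ± 0.042, and no window of chromosome 8 moved by 5 points in all 3 libraries, where 1.85% of all windows were higher and 3.93% lower by that count. At D5 line 2 was further from WT, with proximal values of −9.31 in CTL and −7.56 in MR and distal values of 2.65 and 2.501 over the regions called in all 18 libraries. The log2 ratios of peak share were −0.55 and −0.29 proximally and −0.03 and 0.01 distally.

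The D5 difference of line 2 went with a change in WT. Each WT library of D5 was set against the mean of both D1 libraries in the same medium, and line 2 against its 1 D1 library. The WT proximal segment was higher at D5 by 8.98 and 10.6 points in CTL and by 3.19 and 4.22 in MR, and its share of peaks by 0.45, 0.52, 0.15 and 0.19 on the log2 scale. In line 2 the same values were −0.556 and −0.146 points and 0.05 and −0.04 on the log2 scale. The contrast within each library, without any WT reference, was −7.98, −3.68 and −6.51 points in line 2 at D0 and D1, and −5.65 and −6.11 at D5. In WT it was −0.754 to 1.33 at D0 and D1, 12.9 and 11.7 at D5 in CTL and 6.66 and 7.35 at D5 in MR. The WT contrast at D5 in CTL was thus about as high as that of line 1 at D0 and D1, at 12.2, 13.2 and 15.5.

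**Figure D4:**
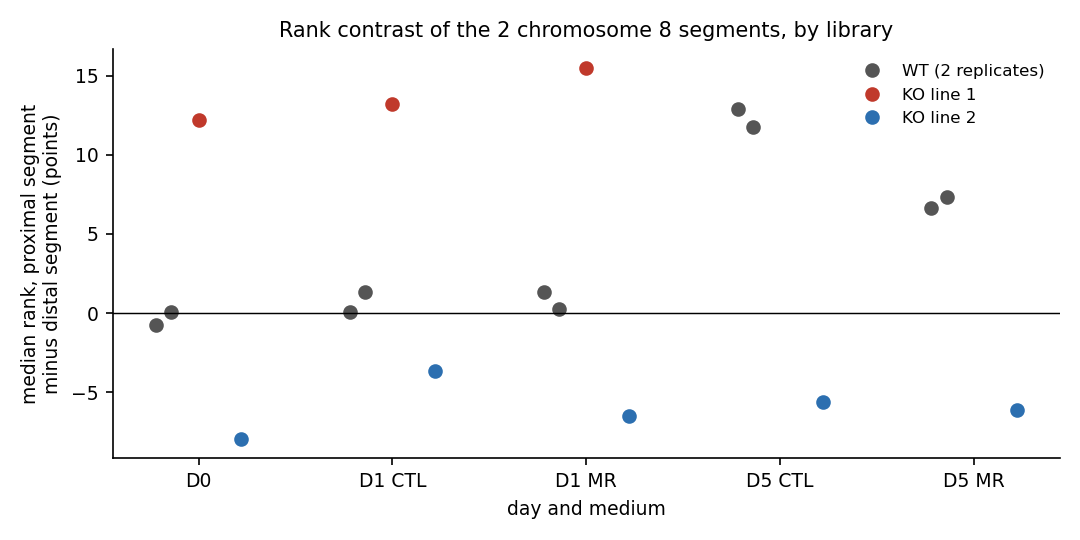
Median within-list rank of the proximal minus that of the distal segment (points), over regions with a call in each of the 18 libraries shown, by day and medium, with 1 point per library. KO line 1 lies at 12.2 to 15.5 at D0 and D1, WT near 0 at D0 and D1 and between 6.66 and 12.9 at D5, and KO line 2 below 0 throughout.

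Days and media were compared by exact two-sided permutation tests within strata, with Benjamini-Hochberg adjustment over 9 tests. The values were the rank contrast, the density contrast (log2 ratio of peaks per Mb, proximal over distal) and the share of peaks on chromosome 8. The segments were chosen on KO against WT and not on these comparisons. Ranks and densities of the same libraries entered that choice, however, so the tests are not independent of it. Of these 9 tests, 0 passed at an adjusted 0.05, and 0 had an unadjusted p under 0.05. From D1 to D5 in WT, all 3 values were higher at D5 in both media, the rank contrast by 8.94 points (from 0.733 to 9.67), the density contrast by 0.27 and the share by 0.276 percentage points. Each had an exact permutation p of 0.0556, the smallest this design allows, adjusted 0.167, so the tests could not reach 0.05. Methionine restriction differed from control by −1.83 points in the rank contrast (exact permutation p = 0.444, adjusted 0.571), −0.02 in the density contrast (exact permutation p = 0.778, adjusted 0.778) and −0.0618 percentage points in the share (exact permutation p = 0.250, adjusted 0.562). By the number of arrangements the smallest p here was 0.00926. In the KO stratum, however, labels were exchanged across both lines. Their rank contrasts at D1 lay far apart, at 13.2 in CTL and 15.5 in MR in line 1 and −3.68 and −6.51 in line 2. Arrangements that split the lines outweigh a difference between media. For the rank and density contrasts a small p was thus hardly reachable, and these tests could not settle whether the media differ. Within WT at D5 the rank contrast was 12.3 ± 0.827 in CTL and 7.002 ± 0.485 in MR (SD, n = 2 each) without overlap, and at D1 it was 0.674 ± 0.887 and 0.792 ± 0.763. Whether the days differ in this was not tested. The WT lists of D5 held 22465 and 20847 peaks in CTL and 39538 and 39263 in MR. The effect of list length on the contrast was not tested. D1 in CTL differed from D0 by 1.84 points (exact permutation p = 0.444, adjusted 0.571), −0.10 (exact permutation p = 0.389, adjusted 0.571) and −0.0330 percentage points (exact permutation p = 0.667, adjusted 0.750). Here too KO labels were exchanged across the lines, so the same limit holds for the rank and density contrasts.

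**Figure D5:**
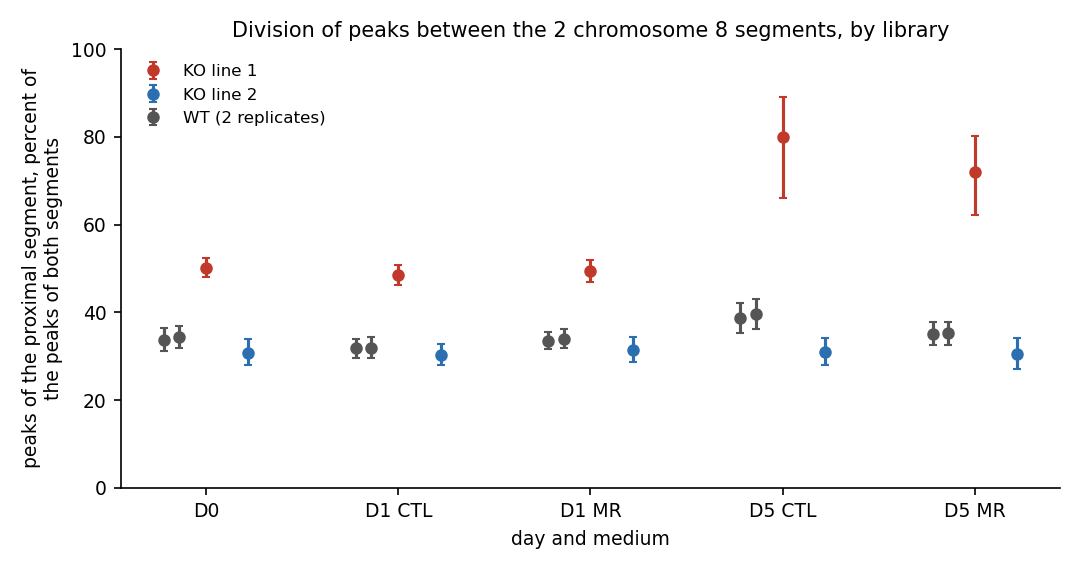
Peaks of the proximal segment as a percent of the peaks of both segments in each of the 20 libraries, by day and medium, with 95% Wilson intervals. WT lies at 31.8% to 34.3% at D0 and D1, KO line 1 at 48.6% to 50.2%, and the short D5 lists of KO line 1 at 80% and 72.0%.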

How the data were processed

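The 20 deposited broadPeak lists, 1 per library, were called per library. Per the submitters' processing notes the build is GRCm38, and the peak caller is not given in the sources used here. Each deposited list holds a score, a fold enrichment (a ratio) and −log10 p- and q-values per peak, all the authors' own. Per the labels' protocols, tagmented DNA was amplified with 10 PCR cycles. All peaks, 787806 in total, were merged at 1 bp overlap with Python 3.11.15, numpy 2.4.6, pandas 2.3.3 and scipy 1.17.1. Libraries were grouped by their titles. Ranks are percentiles of the −log10 p-value within a list, with ties averaged, and differences are KO minus the mean of the 2 WT libraries of the condition, centred on the genome-wide median of the common regions. Density is the share of the peaks of a list. Windows needed 10 common regions or, for density, 10 WT peaks. Read depth was not used here, so its effect on ranks was not tested. The D5 lists of KO line 1 were left out of ranks. Named regions are the 5 highest and 5 lowest means per segment in KO line 1 among regions whose 3 differences share a sign and exceed every WT replicate gap. Named genes are the 2 highest and 2 lowest of each list, and Mylk3, Acta1 and the neighbours of a window threshold were added after their values were seen. Promoters came from RefSeq for 13 of 17 named genes. The segments, members and lists were chosen with earlier results of these data known. Window calls were checked on simulated ranks, and the permutation test on made-up values with fully separate groups. The segment contrasts were not checked in this way. Alternatives changed the ranking column, filters, window grid and replicates.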

Additional observations from a re-analysis of the deposited data

Results flagged for a closer look

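The contrast between the proximal and the distal segment had opposite signs in the 2 KO lines in every library. The mean rank contrast of KO line 1 at D0 and D1 was 14.9 points above that of KO line 2 on those days and 23.5 points above that of KO line 2 at D5. The mean density contrast was higher by 1.13 and 1.38 on the log2 scale. Both lines were set against the same WT libraries at D0 and D1, and the difference between the lines was not tested.

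The D5 lists of KO line 1, which entered no comparison, held few peaks, but they divided in the same direction as the earlier lists of that line. In CTL, 36 of 45 peaks of both segments were proximal (80%, 95% Wilson interval 66.2% to 89.1%), and in MR 67 of 93 were (72.0%, interval 62.2% to 80.1%). The 4 WT lists of D5 had 35.2% to 39.6%. Of all 644 and 1881 peaks of these lists, 99.1% and 99.3% lay in regions called in all 3 early libraries of the line. The window from 80 to 85 Mb held 17 and 31 peaks, more than any other 5 Mb window of the genome in those lists. The share moved with the number of peaks taken. Among the 1881 strongest peaks of each list it was 71.3%, 80.2% and 77.9% in KO line 1 at D0, D1 CTL and D1 MR, 32.8% to 47.7% in WT at D0 and D1, 44.0% to 61.3% in WT at D5 and 27.8% to 31.6% in KO line 2.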

How the results depend on the processing

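The sign of the rank and density contrasts stayed the same under every alternative, for each line and each library run. The mean rank contrast of KO line 1 at D0 and D1 was 9.04 points when ranked by fold enrichment, 17.2 with means over regions, 16.3 with the regions of each KO library and its WT pair, 7.93 where peaks had to cover 50% of a region and 14.7 farther than 1 kb from gene ends. For KO line 2 on those days the same settings gave −2.87, −1.99, −3.45, −5.90 and −1.83, and −1.80 within 1 kb of gene ends. At D5 line 2 had −5.29 with 50% cover, −9.01 adjusted for WT strength, −7.37 at gene ends and −14.3 away from them. The mean density contrast of line 1 was 1.13 with the 20000 strongest peaks, 1.03 by covered length and, in an alternative chosen after seeing the data, 2.33 with the 1881 strongest peaks. For line 2 the last 2 settings gave −0.29 and −0.67 early and −0.57 and −1.36 at D5. Leaving out a WT replicate gave 12.2 to 12.9 points in line 1, −3.50 to −1.30 in line 2 early and −11.0 to −9.74 at D5, and density contrasts of 0.96 to 0.98, −0.17 to −0.14 and −0.42 to −0.39.

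Counts of shifted windows depended on the setting. On chromosome 8 the 4 higher windows of line 1 became 2 with a grid moved by 2.5 Mb, 2 with 10 Mb windows, 0 with a minimum of 10 points, 0 by fold enrichment, 1 with 50% cover and 1 without centring. The 1 lower window became 0 with 10 Mb windows, 0 at 10 points, 0 by fold enrichment, 0 without centring and 0 without WT replicate 1. Line 2 had 1 lower window with 50% cover. Over all chromosomes line 1 had 4 higher with 10 Mb windows, 1 at 10 points, 5 by fold enrichment, 2 with 50% cover and 4 without centring, and 5 lower with the moved grid, 0 with 10 Mb windows, 0 at 10 points, 0 by fold enrichment, 2 with 50% cover and 0 without centring. Line 2 had 19 higher and 28 lower with 2 Mb windows, 3 and 9 with 10 Mb windows, 0 and 3 at 10 points, 2 and 7 with 50% cover, and 0 and 26 without centring. Leaving out 1 library, also chosen for the KO libraries after seeing the data, gave 3 to 5 higher and 0 to 1 lower windows on chromosome 8 in line 1 and 0 to 3 higher in line 2. Over all chromosomes it gave 9 to 25 higher and 2 to 5 lower in line 1, and 7 to 27 higher and 15 to 53 lower in line 2. Fewer libraries have to agree in these last counts, and the cause of the other changes was not tested.

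Of the 9 tests, none passed the adjusted threshold under any alternative, where adjusted p ranged from 0.167 to 1. The chromosome 8 share at D1 against D0 reversed without KO line 1, ranging from −0.0909 to 0.0250 percentage points over the libraries left out. With the replicate block (WT replicate number and KO line), which in this balanced design cannot move the difference, the rank contrast at D5 against D1 (8.94 points) had an exact permutation p of 0.125, the smallest possible, and that of restriction (−1.83) 0.250. Whether the WT replicate numbers pair the samples is not known. The gaps between replicates correlated at −0.0972 to 0.144 across conditions, above 0.1 in 1 of 10 pairs. Such values show no pairing but cannot exclude a weak one. Peak lists without read totals limit all values to ranks and shares within a list.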
